A study of Mus musculus with 9 samples.

Results

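A set of 36 genes of monocytes and macrophages was followed in the dermis of mouse ears, out of 52550 genes in the count table. The members were chosen by symbol and fell into 7 role groups: 4 monocyte genes, 7 resident macrophage genes, 4 genes of C1q and Ms4a7, 6 Fc receptor and adaptor genes, 6 general myeloid genes, 6 lipid-handling and scavenger genes, and 3 sensing receptors. All 36 were found, and all 36 passed the filter on low counts that left 22430 genes for testing. RNA was sequenced from 9 libraries of wild-type C57BL/6 mice (C57BL/6J in the study's methods) that the labels give as 8 weeks old, with 3 libraries in each of 3 groups. VAS+H2O had vaseline on the ears for 5 days and water by gavage for 10 days. IMQ+H2O had imiquimod cream, a TLR7 agonist that causes a psoriasis-like dermatitis in mice, for 5 days with the same water. IMQ+XYF had the cream together with XYF, the herbal decoction Xiao-Yin-Fang, in a gavage of 200 µl at 23.3 mg/g for 10 days, begun 5 days before the cream (the labels and the study's methods give 1 gavage a day, its figure legends more). The study's methods give RNA from ear sheets of 2 mice, and its figure legends give n = 3 for each group. Neither makes clear whether each library pooled a pair of mice or how many mice a group had. The p-values therefore measure the spread between libraries, which may be partly technical.

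Tissue macrophages of the skin sit in the dermis before any inflammation and take up debris, dying cells and immune complexes. Monocytes come from the blood in inflammation, carry Ly6C on their surface, and can turn into macrophages and dendritic cells once they are in the tissue. Both kinds of cell depend on the transcription factor PU.1, which is encoded by Spi1 and binds a purine-rich core called the PU box. The members therefore include genes that are high in newly arrived monocytes (Ly6c2, Plac8, Chil3), genes that are high in resident macrophages (Cd163, Folr2, Mrc1), and genes shared by both. In RNA of whole tissue, fewer cells of a type and less RNA per cell cannot be told apart.

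The libraries held 28756305 to 79836881 counts, of which 8.21% to 14.3% were mitochondrial. Fibroblast markers were present in every library, with a summed level of 10646 to 25878 CPM (counts scaled to the size of the library with edgeR's TMM factors). Markers of other ear tissues were present too and moved with the groups. Keratinocyte markers summed to 3855 to 7041 CPM in VAS+H2O, 2565 to 3889 in IMQ+H2O and 4444 to 16721 in IMQ+XYF. Cartilage markers summed to 1245 to 2152, 375 to 574 and 709 to 2131 CPM in the same order, and skeletal muscle markers to 544 to 2611, 1220 to 2556 and 126 to 878 CPM. Whether this makeup of the samples bears on the genes described here was not tested.

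Promoter sequences of 4 members are shown, all of them with the motif marked below. The sequences are of a monocyte gene (Ly6c2), a resident macrophage gene (Mrc1), an Fc receptor gene (Fcgr4) and a scavenger receptor gene (Marco). They come from RefSeq (GRCm38.p6), run 5′ to 3′ on the gene's strand and stop before the start of the gene in GENCODE vM21. Capitals mark the PU box core, GAGGAA, on either strand (TTCCTC where it lies on the other one).

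Ly6c2 promoter, monocyte gene, GRCm38, chr15:75111972-75112221, minus strand: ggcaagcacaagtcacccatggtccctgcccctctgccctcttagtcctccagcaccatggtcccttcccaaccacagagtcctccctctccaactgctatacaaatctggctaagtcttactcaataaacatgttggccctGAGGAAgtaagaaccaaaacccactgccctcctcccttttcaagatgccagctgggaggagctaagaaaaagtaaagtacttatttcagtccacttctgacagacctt
Mrc1 promoter, resident macrophage gene, GRCm38, chr2:14229164-14229391, plus strand: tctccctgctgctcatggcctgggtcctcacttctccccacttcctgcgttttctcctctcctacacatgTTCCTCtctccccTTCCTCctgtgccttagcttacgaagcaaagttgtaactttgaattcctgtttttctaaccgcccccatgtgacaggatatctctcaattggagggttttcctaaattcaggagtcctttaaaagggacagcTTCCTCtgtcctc
Fcgr4 promoter, Fc receptor gene, GRCm38, chr1:171018676-171018919, plus strand: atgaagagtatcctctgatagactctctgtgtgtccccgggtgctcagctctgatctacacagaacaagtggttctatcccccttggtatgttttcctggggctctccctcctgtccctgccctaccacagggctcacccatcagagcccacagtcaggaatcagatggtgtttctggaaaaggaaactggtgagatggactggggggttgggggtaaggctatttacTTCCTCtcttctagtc
Marco promoter, scavenger receptor gene, GRCm38, chr1:120505025-120505274, minus strand: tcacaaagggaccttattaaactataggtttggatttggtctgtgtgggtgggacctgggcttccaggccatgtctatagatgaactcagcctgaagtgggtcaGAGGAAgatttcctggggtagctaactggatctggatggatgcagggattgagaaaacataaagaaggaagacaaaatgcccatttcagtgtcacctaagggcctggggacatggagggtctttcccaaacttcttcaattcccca

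Promoter entries matched 29 of the 36 members by symbol, and Msr1, C1qa, Adgre1, Maf, Clec10a, Tyrobp and Cd14 had no entry. In the 250 bases before the RefSeq start, 17 of 29 members (58.6%) held GAGGAA on either strand, and 23.3% of all 32851 promoters of the same length did. Counted from the RefSeq start, Mrc1 had 3 matches, which begin at -180, -167 and -35, and the single matches of Ly6c2, Fcgr4 and Marco begin at -108, -22 and -146. The runs shown for Mrc1 and Fcgr4 hold 228 and 244 of the 250 bases, because the GENCODE start lies before the RefSeq start there. For Aif1, Laptm5 and Fcgr3 the counted match itself lies past the GENCODE start. The 2 starts are 5532 bases apart in Fcgr3. No match was found in the monocyte genes Chil3 and Ms4a6c, the resident macrophage genes Cd163, Folr2 and Mertk, or in Fcgr2b and Fcer1g. Of the resident macrophage genes with an entry, Mrc1 alone had a match. Further motifs were searched in the same way. A pair of GAAA cores with any 2 bases between them, an interferon regulatory factor element, was in 4 members (13.8%, with 2.98% of all promoters), 1 of them Fcgr4. TGANTCA, an AP-1 site, was in 2 members (6.9%, with 6.75% of all promoters), and TATAAA was in 3 (10.3%, with 12.4%). These are matches of letters, and no binding was measured.

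The first comparison asked what imiquimod did to these genes in mice given water. A gene was called when its Benjamini-Hochberg adjusted p from edgeR's quasi-likelihood test was at most 0.05 and its log2 fold change was at least 1 in size. Chil3, Fcgr4, Fcer1g, Msr1 and Marco were called higher in IMQ+H2O, which is 5 of 36 members, and 0.646% of all tested genes were called higher. None was called lower by edgeR or by DESeq2, none was lower at an unadjusted p under 0.05, and 0.348% of all tested genes were called lower by edgeR. At an unadjusted p under 0.05, 20 of 36 were higher, with 10.1% of all tested genes. In 17 of 36 the 3 IMQ+H2O libraries lay above all 3 VAS+H2O libraries, with 15.1% of all tested genes, and in 0 of 36 they lay below, with 16.5%. The median log2 fold change of the members was 0.63 (range -0.60 to 4.45), beside -0.023 for all tested genes. The log2 fold change was above 0 in 26 of 36, with 47.7% of all tested genes. DESeq2's Wald test called 13 members higher, the 5 above among them, where it called 2.49% of all tested genes higher and 1.74% lower. Leaving out replicate 2 or 3 of VAS+H2O or replicate 2 or 3 of IMQ+H2O left 1 member called, Msr1, and leaving out VAS+H2O replicate 1 left 3.

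**Figure D1:**
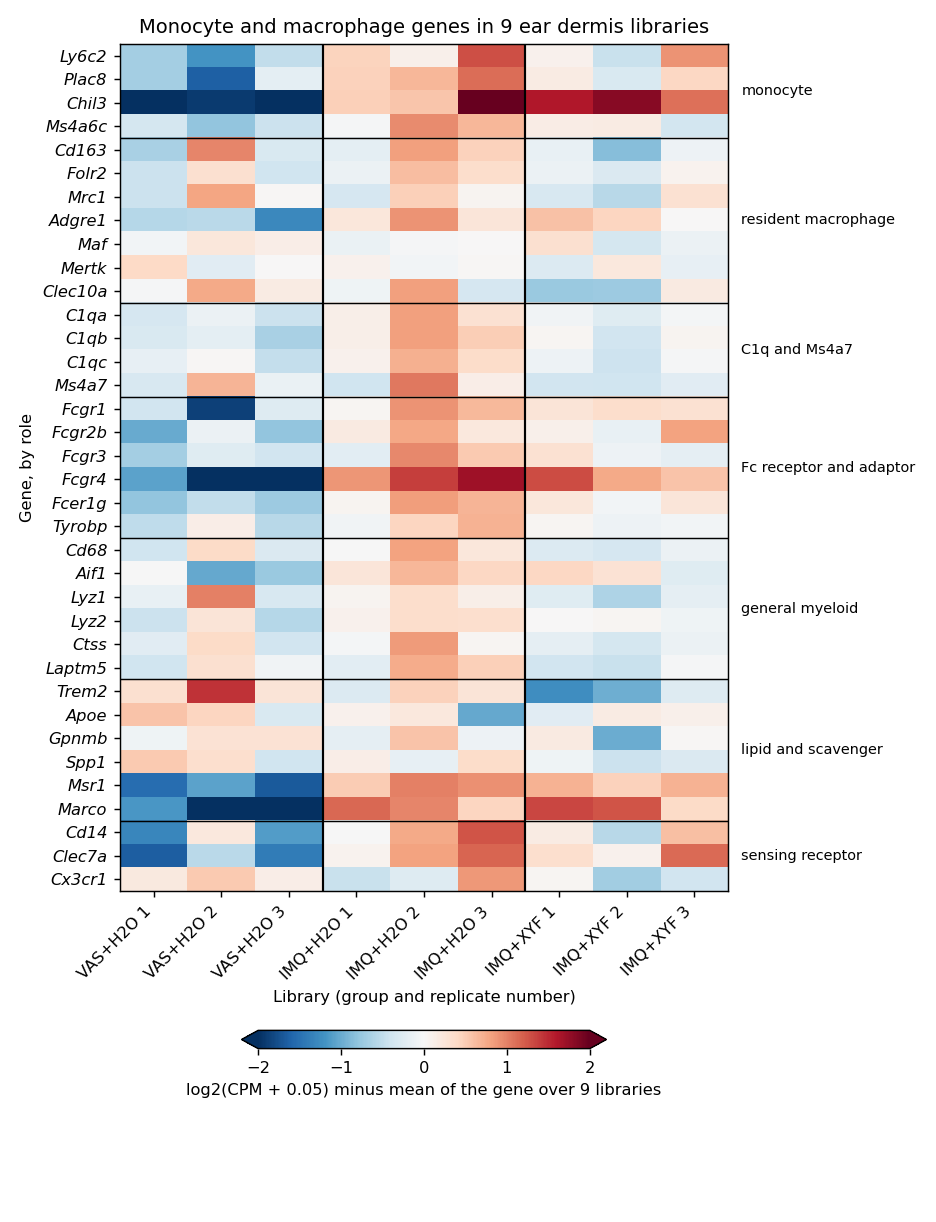
Level of each of the 36 members (rows, by role group) in each of the 9 libraries (columns), as log2(CPM + 0.05) minus the mean of the gene over the 9 libraries, in colour. The VAS+H2O columns lie below the gene's mean for the monocyte, Msr1 and Marco rows and nearly all Fc receptor rows, whereas most resident macrophage rows show no such step between groups.

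Of the 4 monocyte genes, 1 was called higher under imiquimod by edgeR, Chil3, and 4 by DESeq2. All 4 had log2 fold changes above 0 with a median of 1.47, all 4 had an unadjusted p under 0.05, and in all 4 the groups did not overlap. Ly6c2 encodes the Ly6C protein that marks inflammatory monocytes. Its level was 11.2, 7.81 and 12.7 CPM in VAS+H2O, 24.5, 19.2 and 43.6 CPM in IMQ+H2O, and 19.0, 13.1 and 33.3 CPM in IMQ+XYF (replicates 1 to 3 in each group). The lowest imiquimod library thus lay above the highest vaseline library, and IMQ+H2O replicate 3 stood highest. The log2 fold change of IMQ+H2O over VAS+H2O was 1.46 ± 0.40 (SE, edgeR adjusted p = 0.101), so Ly6c2 was not called, although it was by DESeq2 (adjusted p = 0.00659). Ly6c2 has a near-identical neighbour, Ly6c1, which endothelial cells express, and how reads were split between the copies is not given in the sources used here. Ly6c1 measured 182, 119 and 203 CPM in VAS+H2O and 316, 351 and 362 CPM in IMQ+H2O. The 9 endothelial markers listed, Ly6c1 among them, were all higher in IMQ+H2O without overlap of the groups, and their part in the Ly6c2 level was not tested.

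Plac8, a gene expressed in monocytes and other myeloid cells, measured 14.7, 7.61 and 20.7 CPM in VAS+H2O, 32.5, 37.4 and 51.2 CPM in IMQ+H2O, and 26.6, 19.2 and 31.5 CPM in IMQ+XYF. The groups with and without imiquimod under water did not overlap, and the difference was 1.49 ± 0.35 on the log2 scale (SE, edgeR adjusted p = 0.0738, DESeq2 adjusted p = 0.00115). Ms4a6c, a membrane protein gene of monocytes and macrophages, measured 15.5, 11.5 and 14.7 CPM, then 19.5, 38.1 and 31.4 CPM, then 22.0, 22.2 and 15.4 CPM in the same order of groups. Its log2 difference under imiquimod was 1.09 ± 0.26 (SE, edgeR adjusted p = 0.0731, DESeq2 adjusted p = 0.00219), also short of the call by edgeR alone.

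Chil3, which encodes the chitinase-like protein Ym1 made by monocytes, alternatively activated macrophages and neutrophils, had the widest change of the set. It measured 0.218, 1.08 and 0.683 CPM in VAS+H2O, which rests on 9, 39 and 51 counts. In IMQ+H2O it measured 5.89, 6.21 and 31.1 CPM, and in IMQ+XYF 12.9, 14.97 and 9.08 CPM. Every imiquimod library lay above every vaseline library, and IMQ+H2O replicate 3 stood far above the other two of its group. Chil3 rose by 4.45 ± 0.80 on the log2 scale, which is 21.9-fold (edgeR adjusted p = 0.0409). Among the 6 fits that leave out 1 library of these groups it was called in 1, with adjusted p from 0.0479 to 0.138 and log2 fold changes from 3.22 to 4.92. Chil3 has a close copy, Chil4, so its count carries the same doubt about shared reads.

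**Figure D2:**
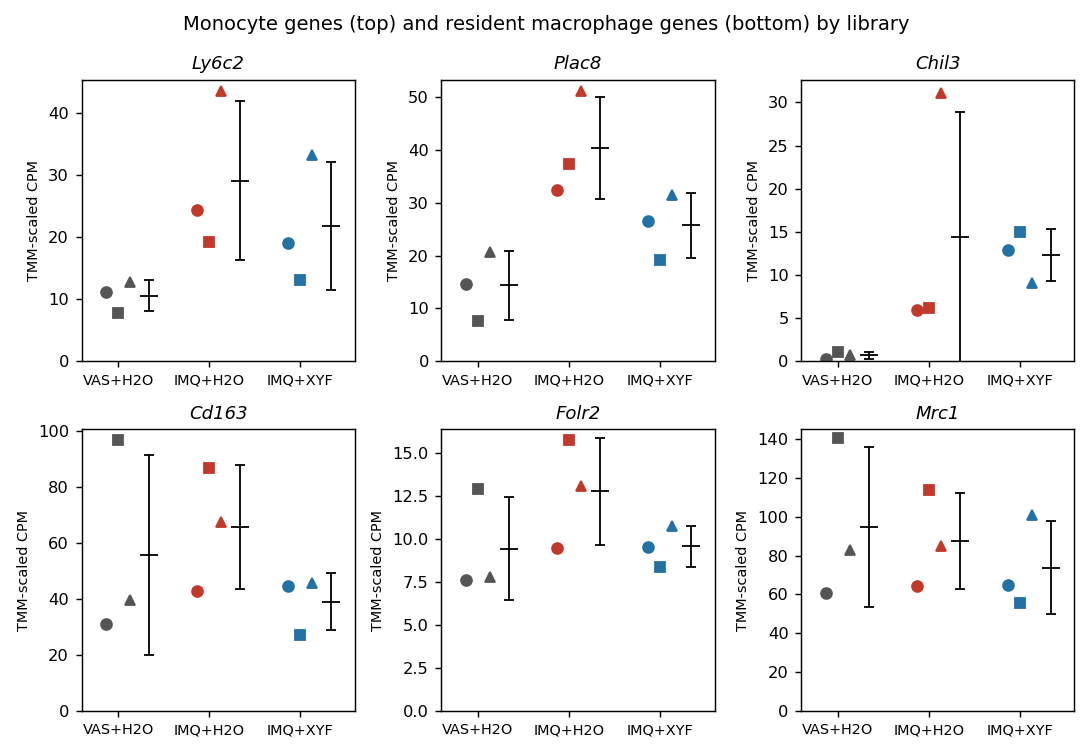
Level of 3 monocyte genes (top) and 3 resident macrophage genes (bottom) in each library, in TMM-scaled CPM on linear axes from 0 (circle, square and triangle for replicates 1, 2 and 3, and a bar for the mean ± SD, n = 3, with the Chil3 bar in IMQ+H2O reaching the axis). Ly6c2, Plac8 and Chil3 separate VAS+H2O from IMQ+H2O, and Cd163, Folr2 and Mrc1 overlap in all 3 groups.

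Resident macrophage genes did not move together. Their median log2 fold change under imiquimod was -0.063, 3 of 7 were above 0, 0 of 7 were called by edgeR (1 at an unadjusted p under 0.05, and 1 by DESeq2, in both cases Adgre1), and in 6 of 7 the groups overlapped. Cd163, the scavenger receptor for haptoglobin-haemoglobin complexes, measured 31.1, 96.7 and 39.5 CPM in VAS+H2O, 42.6, 86.7 and 67.5 CPM in IMQ+H2O, and 44.4, 27.1 and 45.5 CPM in IMQ+XYF. VAS+H2O replicate 2 was the highest of all 9 libraries. Mrc1, the mannose receptor CD206, measured 60.6, 141 and 82.7 CPM, then 64.3, 114 and 84.9 CPM, then 65.1, 55.6 and 101 CPM, again with VAS+H2O replicate 2 the highest. Folr2, the folate receptor beta of tissue macrophages, measured 7.59, 12.9 and 7.80 CPM, then 9.51, 15.7 and 13.1 CPM, then 9.53, 8.3995 and 10.8 CPM.

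The log2 differences under imiquimod were 0.24 ± 0.43 for Cd163, -0.11 ± 0.35 for Mrc1 and 0.44 ± 0.26 for Folr2 (SE, n = 3 libraries a group), with edgeR adjusted p of 0.790, 0.881 and 0.354. Each lay within about 2 standard errors of 0. Single libraries moved these values: over the 6 fits that leave out 1 library of these groups, Cd163 ran from -0.054 to 0.89 and Mrc1 from -0.35 to 0.29, with the lowest value of each without VAS+H2O replicate 1 and the highest without VAS+H2O replicate 2. Maf, a transcription factor of resident macrophages, measured 101, 123 and 115 CPM in VAS+H2O, 96.3, 104 and 105 CPM in IMQ+H2O, and 131, 81.9 and 96.3 CPM in IMQ+XYF. Its spread was narrow in VAS+H2O and IMQ+H2O and wider in IMQ+XYF. The log2 difference under imiquimod was -0.15 ± 0.16 (SE, edgeR adjusted p = 0.627). Mertk, a receptor for the uptake of dying cells, and Clec10a, the lectin MGL, had log2 differences of -0.063 and -0.12.

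Adgre1, which encodes the macrophage antigen F4/80, was the exception. It measured 20.1, 20.6 and 12.3 CPM in VAS+H2O, 35.1, 56.2 and 35.7 CPM in IMQ+H2O, and 44.8, 40.3 and 30.2 CPM in IMQ+XYF. All 6 imiquimod libraries were above the 3 vaseline libraries. The log2 differences from VAS+H2O were 1.26 ± 0.26 for IMQ+H2O and 1.12 ± 0.26 for IMQ+XYF (SE), with edgeR adjusted p of 0.0582 and 0.0684, so neither was called, and DESeq2 called both (adjusted p = 0.000587 and 0.00235).

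A list level was taken in each library as the mean over a list's genes of log2 CPM, each gene centred on its mean over the 9 libraries. The monocyte level minus the resident level was -1.18, -1.71 and -0.68 in VAS+H2O, 0.42, 0.06 and 1.37 in IMQ+H2O, and 0.61, 0.62 and 0.49 in IMQ+XYF. The vaseline libraries lay below all 6 imiquimod libraries. The same difference between 10 further monocyte genes and 18 further resident macrophage genes, which share no gene with the members, was -1.18, -1.18 and -0.87, then 0.11, 0.40 and 0.98, then 0.62, 0.48 and 0.63. VAS+H2O was lowest in both pairs of lists, and IMQ+H2O and IMQ+XYF overlapped in both. Within the further monocyte list, 3 of 10 genes were called higher by edgeR and 0 lower. Among them, Ifitm6 rose by 2.44 ± 0.40 and Hp, haptoglobin, by 2.31 ± 0.43 on the log2 scale (SE, edgeR adjusted p = 0.0301 and 0.0435). Within the further resident list, 1 of 18 was called lower and 0 higher: Slc40a1, the iron exporter ferroportin, fell by 1.60 on the log2 scale (SE 0.29, edgeR adjusted p = 0.0429). Ccl24, a chemokine of resident macrophages, was at -1.31 ± 0.49 and was not called. The further resident list as a whole had no common direction, with a median log2 difference of 0.093 and 9 of 18 above 0. At an unadjusted p under 0.05, 2 of its genes were higher and 3 lower, with 10.1% and 10.8% of all tested genes.

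**Figure D3:**
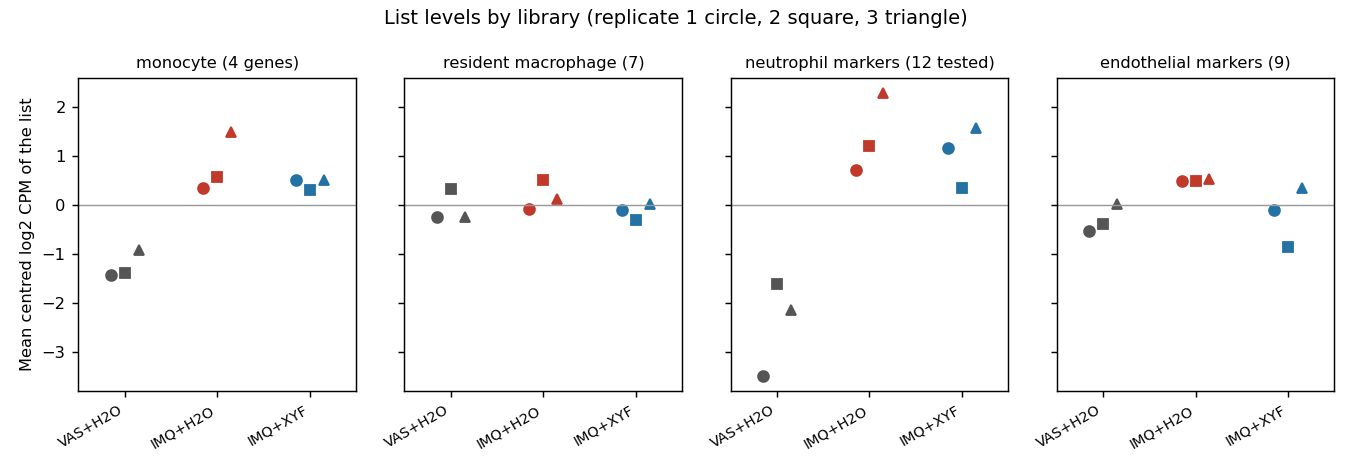
Mean centred log2 CPM of the monocyte and resident macrophage members and of the tested neutrophil and endothelial markers in each library (circle, square and triangle for replicates 1, 2 and 3). The monocyte and neutrophil levels of VAS+H2O lie below both other groups, the endothelial level of IMQ+H2O lies above both other groups, and the resident macrophage levels overlap.

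The C1q genes encode the 3 chains of the first complement component, which tissue macrophages make, and lie within 18.7 kb of each other on chromosome 4 (GRCm38 coordinates 136880129 to 136898803). All 3 chains were higher in IMQ+H2O than in VAS+H2O without overlap, and none was called. C1qb measured 92.7, 99.4 and 73.0 CPM in VAS+H2O, 124, 201 and 160.4 CPM in IMQ+H2O, and 117, 87.8 and 119 CPM in IMQ+XYF. C1qc measured 111, 126 and 89.6 CPM, then 132, 204 and 160.1 CPM, then 116, 93.8 and 123 CPM. In both genes the 3 IMQ+H2O libraries were the 3 highest of the 9. The log2 differences were 0.87 ± 0.20 for C1qb and 0.60 ± 0.19 for C1qc (SE), with edgeR adjusted p of 0.0716 and 0.134.

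The chains did not keep one ratio. C1qc over C1qb, a ratio of CPM that is not corrected for length and is compared only between libraries, was 1.202 to 1.271 in VAS+H2O, 0.998 to 1.06 in IMQ+H2O and 0.989 to 1.07 in IMQ+XYF, so that the vaseline libraries stood above the other 6. C1qa over C1qb overlapped between all groups, at 0.760 to 0.907, 0.681 to 0.781 and 0.723 to 0.851. Ms4a7, a macrophage membrane protein gene grouped with them, measured 7.58 to 20.8 CPM in IMQ+H2O and 8.05 to 16.0 CPM in VAS+H2O and did not follow the C1q genes.

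Fc receptors bind the constant part of antibodies, and Fcer1g and Tyrobp encode the adaptors that signal for them and for related receptors. All 6 genes of this group were higher at an unadjusted p under 0.05, with a median log2 fold change of 1.11, and in 5 of 6 the groups did not overlap. Fcgr4, a receptor for IgG2 antibodies on monocytes, macrophages and neutrophils, measured 3.71, 0.889 and 1.41 CPM in VAS+H2O, 14.6, 20.5 and 25.5 CPM in IMQ+H2O, and 19.4, 13.3 and 11.7 CPM in IMQ+XYF. The vaseline and imiquimod libraries were far apart, and Fcgr4 rose by 3.34 ± 0.50 on the log2 scale, or 10.1-fold (edgeR adjusted p = 0.0247). Fcer1g, the common gamma chain, measured 35.3, 43.5 and 36.8 CPM, then 63.6, 108 and 97.4 CPM, then 71.6, 58.9 and 72.2 CPM. It rose by 1.22 ± 0.19 on the log2 scale, or 2.33-fold (edgeR adjusted p = 0.0292), again with no overlap.

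Leaving out 1 library of these groups at a time, Fcgr4 was called in 2 of 6 fits and Fcer1g in 1 of 6, with highest adjusted p of 0.101 and 0.119. Fcgr2b, the inhibitory receptor of the family, measured 43.7, 80.5 and 50.7 CPM in VAS+H2O, 99.6, 150.4 and 101 CPM in IMQ+H2O, and 94.5, 79.1 and 154 CPM in IMQ+XYF. Its log2 difference was 1.01 ± 0.31. Fcgr2b was not called by edgeR (adjusted p = 0.129) but was by DESeq2 (adjusted p = 0.0267). The activating receptors Fcgr1 and Fcgr3 were at 1.25 ± 0.38 and 0.93 ± 0.27 and Tyrobp at 0.66 ± 0.23, none of them called by edgeR. DESeq2 called Fcgr1 (adjusted p = 0.0171) but not Fcgr3 or Tyrobp. Fcgr2b, Fcgr4, Fcgr3 and Fcer1g lie within 275.7 kb on chromosome 1, and the receptors are similar in sequence, so reads could be shared among them.

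**Figure D4:**
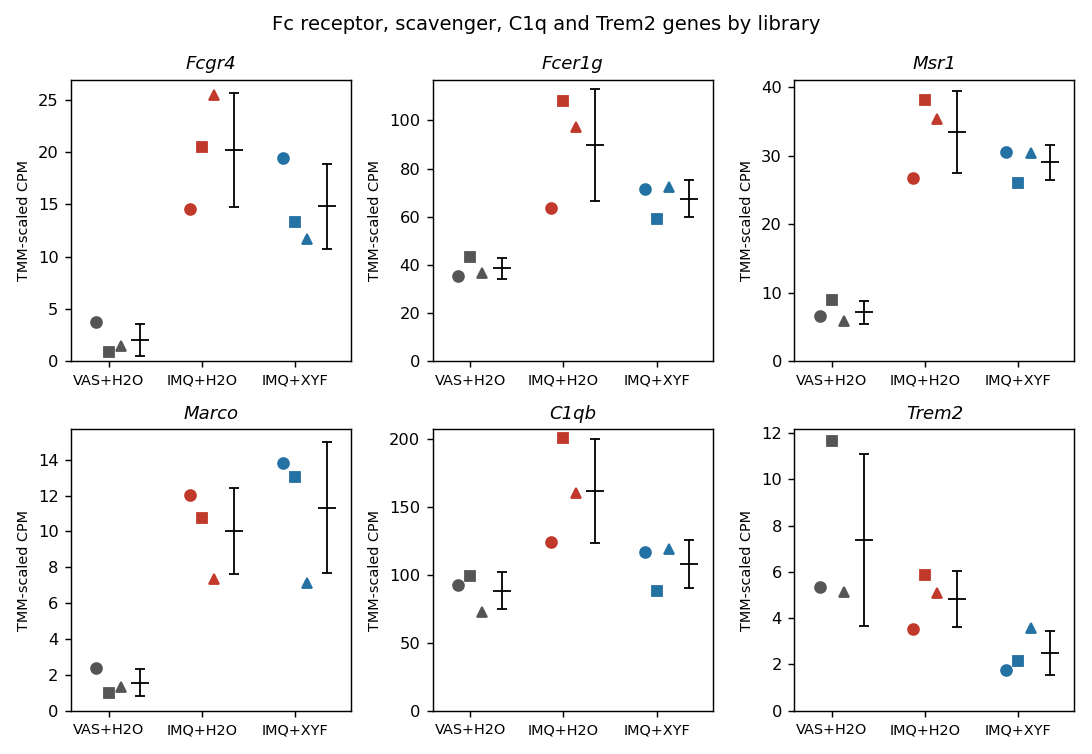
Level of 6 receptor and complement genes in each library, in TMM-scaled CPM on linear axes from 0 (circle, square and triangle for replicates 1, 2 and 3, and a bar for the mean ± SD, n = 3). Fcgr4, Fcer1g, Msr1 and Marco are low in VAS+H2O and higher in both imiquimod groups, C1qb is highest in IMQ+H2O, and Trem2 is lowest in IMQ+XYF.

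The lipid-handling and scavenger group split. Msr1, the class A scavenger receptor for modified lipoproteins and bacteria, measured 6.53, 8.95 and 5.84 CPM in VAS+H2O, 26.7, 38.1 and 35.4 CPM in IMQ+H2O, and 30.6, 26.0 and 30.4 CPM in IMQ+XYF. The 3 vaseline libraries were tightly grouped far below the other 6, and Msr1 rose by 2.24 ± 0.20 on the log2 scale, or 4.71-fold (edgeR adjusted p = 0.00478). It was called in 6 of 6 fits without 1 library of these groups and in all 16 alternative fits, the only member for which that held. Marco, a related scavenger receptor, measured 2.40, 1.0005 and 1.31 CPM, then 12.02, 10.7 and 7.33 CPM, then 13.8, 13.04 and 7.11 CPM. It rose by 2.67 ± 0.39 on the log2 scale, or 6.37-fold (edgeR adjusted p = 0.0247), and was called in 1 of the 6 fits without 1 library.

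The other 4 genes of the group had log2 differences from -0.60 to -0.040 under imiquimod, and none was called. Apoe, the lipid carrier apolipoprotein E, measured 1667, 1511 and 913 CPM in VAS+H2O, 1188, 1294 and 551 CPM in IMQ+H2O, and 959, 1254 and 1206 CPM in IMQ+XYF. The groups overlapped (log2 difference -0.43 ± 0.33, SE, edgeR adjusted p = 0.482), and Apoe is also made by cells other than macrophages in skin. Gpnmb, a glycoprotein of lipid-loaded macrophages and of melanocytes, measured 160.4, 208 and 209 CPM, then 149.7, 253 and 158 CPM, then 192, 85.5 and 173 CPM, with a log2 difference of -0.040 ± 0.31. Trem2, a lipid-sensing receptor that signals through Tyrobp, measured 5.34, 11.6 and 5.12 CPM, then 3.51, 5.87 and 5.09 CPM, then 1.78, 2.14 and 3.57 CPM. Its log2 difference under imiquimod was -0.60 ± 0.39 (SE, edgeR adjusted p = 0.408). Spp1, osteopontin, measured 28.1 to 55.0 CPM over all libraries. The ratio of Trem2 to its adaptor Tyrobp, in CPM and compared only between libraries, was 0.167 to 0.236 in VAS+H2O, 0.0695 to 0.0969 in IMQ+H2O and 0.0383 to 0.0822 in IMQ+XYF. The vaseline libraries stood above the other 6 in this ratio.

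General myeloid genes had a lower median log2 fold change under imiquimod than the monocyte and Fc receptor genes. Lyz2, the lysozyme of macrophages and neutrophils, measured 279.9, 453 and 255 CPM in VAS+H2O, 404, 485 and 477 CPM in IMQ+H2O, and 383, 388 and 356 CPM in IMQ+XYF. Ctss, the lysosomal protease cathepsin S, measured 102, 155 and 91.6 CPM, then 116, 216 and 122 CPM, then 105, 93.6 and 110.2 CPM. In both genes VAS+H2O replicate 2 lay among the imiquimod libraries. The log2 differences were 0.47 ± 0.20 for Lyz2 and 0.38 ± 0.27 for Ctss (SE), with edgeR adjusted p of 0.235 and 0.441. Over the 6 genes the median was 0.42, and 0 of 6 were called by edgeR. Aif1 alone, which encodes IBA1, had groups that did not overlap, and DESeq2 called it (adjusted p = 0.0177). Lyz1 is a near-identical copy of Lyz2 on chromosome 10, and the split of reads between them is uncertain.

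Among the sensing receptors, Clec7a encodes dectin-1, the receptor for fungal glucans. It measured 4.03, 8.78 and 4.82 CPM in VAS+H2O, 13.4, 22.2 and 28.6 CPM in IMQ+H2O, and 16.1, 13.6 and 28.0 CPM in IMQ+XYF. All 6 imiquimod libraries lay above the vaseline libraries, at a log2 difference of 1.87 ± 0.41 for IMQ+H2O (SE, edgeR adjusted p = 0.0645). Clec7a was thus not called by edgeR, although it was by DESeq2 (adjusted p = 0.000254). Cd14, the co-receptor for endotoxin, measured 10.7, 30.6 and 12.2 CPM, then 26.4, 44.8 and 63.7 CPM, then 29.6, 18.0 and 40.3 CPM. VAS+H2O replicate 2 overlapped the imiquimod libraries, and the log2 difference was 1.34 ± 0.48 (SE, edgeR adjusted p = 0.170). Cx3cr1, the fractalkine receptor of patrolling monocytes and some macrophages, was low throughout, at 0.488 to 1.54 CPM, and its annotated span overlaps several other genes.

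**Figure D5:**
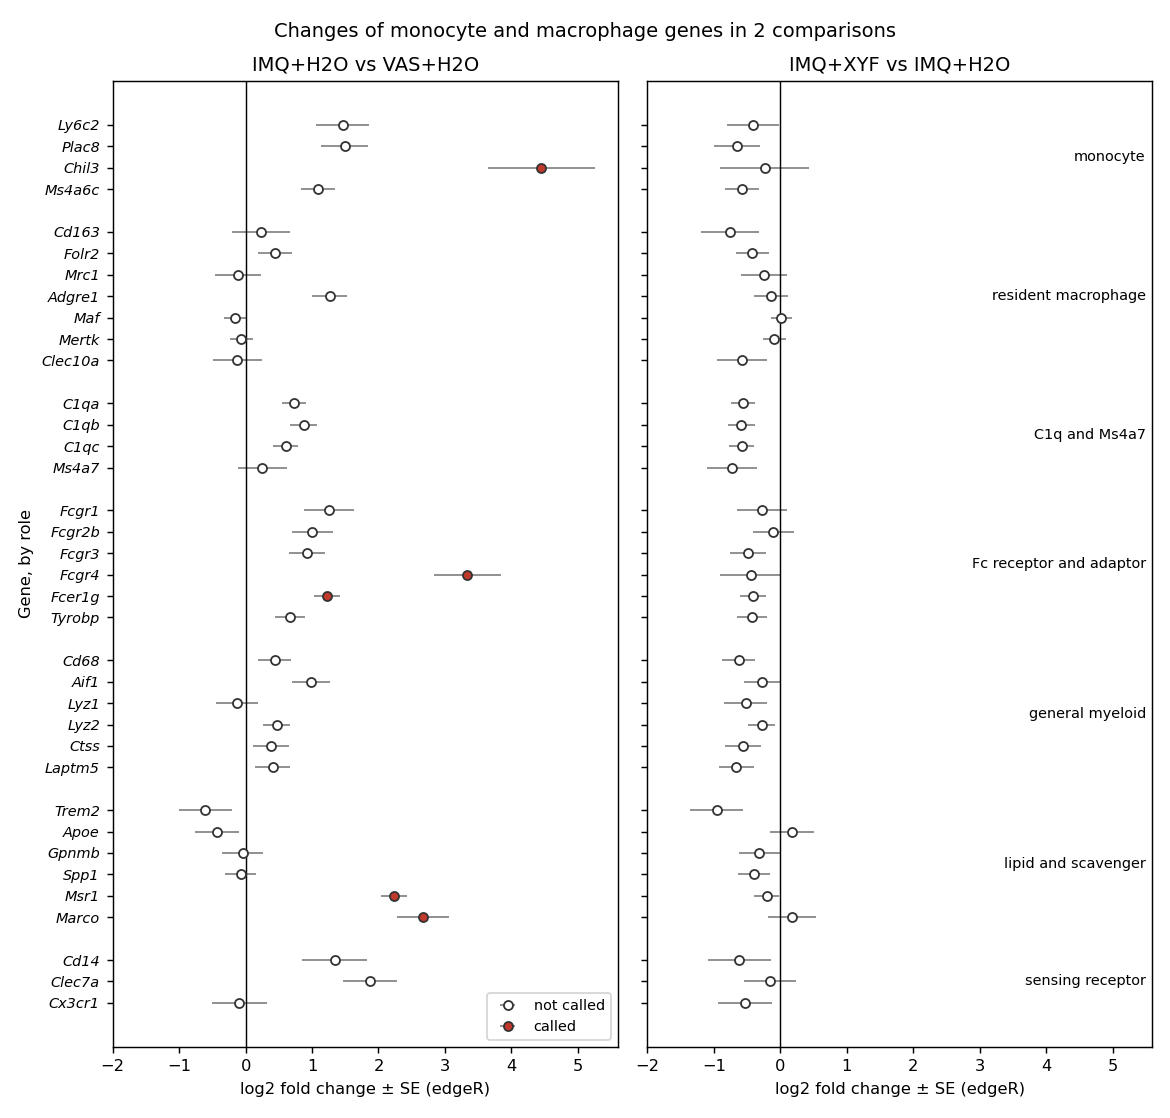
log2 fold change ± SE from edgeR for each member, by role group, for IMQ+H2O over VAS+H2O (left) and IMQ+XYF over IMQ+H2O (right, with filled points for called genes). On the left the monocyte and Fc receptor genes all lie above 0 and 5 members are called, and on the right 33 of 36 points lie below 0 and none is called.

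Neutrophils express several of these genes as well, among them Chil3, Fcgr4, Fcer1g, Clec7a, Cd14 and Lyz2. Neutrophil markers moved with the groups: 16 were listed, 12 passed the filter, 6 of these were called higher by edgeR, and in 11 of 12 IMQ+H2O lay above VAS+H2O without overlap. Their summed level was 128 to 161 CPM in VAS+H2O, 391.8 to 948 CPM in IMQ+H2O and 243 to 683 CPM in IMQ+XYF. The called ones were S100a8, S100a9, Csf3r, Mmp8, Trem1 and Stfa2l1. The defining marker Ly6g was low throughout, with 0 in 2 of 3 vaseline libraries and in 2 of 3 IMQ+XYF libraries and 0.0970 to 0.624 CPM in the other 5. The part of neutrophils in the levels of the members was not tested.

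Genes that recruit and sustain monocytes were read from a list of 13, of which 1 was called higher and 0 lower by edgeR, with a median log2 difference of 0.57. Ccl12, a ligand of the monocyte receptor CCR2, rose by 1.97 ± 0.19 on the log2 scale (SE, edgeR adjusted p = 0.00703). Ccl2, another CCR2 ligand, was at 1.15 ± 0.57 and was not called, and the receptors Ccr2 and Csf1r were at 0.62 ± 0.30 and -0.34 ± 0.28. Of 10 transcription factors, 1 was called higher, Spi1, which encodes PU.1, and 0 lower. The list had no common direction, with a median log2 difference of 0.022 and 6 of 10 above 0. At an unadjusted p under 0.05, 2 were higher and 3 lower, with 10.1% and 10.8% of all tested genes. Spi1 measured 23.7, 25.4 and 18.1 CPM in VAS+H2O, 36.5, 50.7 and 53.2 CPM in IMQ+H2O, and 36.6, 31.0 and 37.3 CPM in IMQ+XYF, a log2 difference of 1.06 ± 0.18 under imiquimod (SE, edgeR adjusted p = 0.0342). Of 15 products of activated macrophages, Acod1, which makes itaconate, was called higher at 4.25 ± 0.80 and Retnla, a product of alternatively activated macrophages, fell by 2.24 on the log2 scale (SE 0.29, edgeR adjusted p = 0.0449 and 0.0186). Of 6 pan-leukocyte genes, Itgb2 and Cd52 were called higher. Markers of other cells that were called under imiquimod were Ccr7 of dendritic cells, higher, and Col2a1 and Matn3 of cartilage, lower.

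Between genes, levels were compared per kilobase of merged exons (GENCODE vM21). In VAS+H2O, Apoe stood highest at 638 ± 186 CPM per kb (SD, n = 3), followed by Lyz2 at 250.3 ± 81.9 and Ctss at 85.6 ± 24.9. C1qb, C1qa and C1qc came next, at 81.2 ± 12.6, 70.0 ± 7.80 and 56.5 ± 9.58, and the spreads of Ctss, C1qb and C1qa overlapped. The monocyte genes were low on this scale, from 0.406 for Chil3 to 9.01 for Plac8, and the resident macrophage genes ran from 5.45 for Adgre1 to 16.9 for Mertk. In IMQ+H2O the monocyte genes ran from 8.82 to 25.3 and the resident genes from 6.68 to 16.2, and the ranges of the means overlapped in both groups.

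The second comparison asked how the same genes differed when XYF was given with imiquimod. IMQ+XYF and IMQ+H2O differed in no member by the rule above: edgeR called 0 of 36 and DESeq2 0 of 36, where edgeR called 0.00446% of all tested genes in each direction and DESeq2 0.606% higher and 0.334% lower. The values lay mostly below 0. The log2 difference was above 0 in 3 of 36 members and below it in 33, with 50.7% of all tested genes above 0. The median was -0.42 (range -0.95 to 0.18), beside 0.0054 for all tested genes. At an unadjusted p under 0.05, 7 of 36 were lower and 0 higher, with 5.39% and 6.35% of all tested genes. In 8 of 36 the 3 IMQ+XYF libraries lay below all 3 IMQ+H2O libraries, with 8.74% of all tested genes, and in 0 of 36 they lay above, with 9.22%. The 36 are not independent, since they share cells and libraries. This comparison also shares its 3 IMQ+H2O libraries with the first, with opposite sign. A high level in those libraries by itself raises the first difference and lowers the second. Leaving out 1 library at a time, the median ran from -0.60, without IMQ+H2O replicate 1, to -0.24, without IMQ+H2O replicate 2.

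The 3 C1q genes had the lowest p-values of the set in this comparison. C1qa measured 96.5, 157 and 109 CPM in IMQ+H2O and 84.6, 74.7 and 86.2 CPM in IMQ+XYF, without overlap, at a log2 difference of -0.56 ± 0.18 (SE, unadjusted p = 0.0117, edgeR adjusted p = 0.364). C1qb and C1qc were at -0.58 ± 0.20 and -0.58 ± 0.19, likewise without overlap (edgeR adjusted p = 0.379 and 0.367). Their levels in IMQ+XYF overlapped those of VAS+H2O, with log2 differences of 0.17, 0.29 and 0.023 for C1qa, C1qb and C1qc. The endothelial markers lay below 0 too, with 9 of 9 below 0, 7 of 9 not overlapping and a median of -0.62, and none of them was called (4 at an unadjusted p under 0.05). All 8 mast cell markers were below 0 as well, with a median of -0.62 and 3 of 8 not overlapping, and so were all 9 skeletal muscle markers, with a median of -1.71, and the 10 keratinocyte and 9 cartilage markers were all above 0, with medians of 1.47 and 1.4998. The part of any of these in the lower values was not tested.

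Among the monocyte genes the log2 differences of IMQ+XYF from IMQ+H2O were -0.42 ± 0.39 for Ly6c2, -0.65 ± 0.34 for Plac8, -0.23 ± 0.67 for Chil3 and -0.58 ± 0.25 for Ms4a6c (SE), with edgeR adjusted p from 0.424 to 0.909. Only Plac8 had groups that did not overlap. The sign of Chil3 rested on IMQ+H2O replicate 3, and without it the difference was 1.04. Without the same library Ly6c2 was at 0.025. The resident macrophage genes had a median of -0.25, from -0.75 ± 0.44 for Cd163 to 0.018 ± 0.16 for Maf, and all 7 overlapped. Cd68, Lyz1, Lyz2 and Ctss of the general myeloid group did not overlap, with log2 differences of -0.63, -0.52, -0.28 and -0.56. Trem2 had the lowest value, -0.95 ± 0.40 (SE, unadjusted p = 0.0406, edgeR adjusted p = 0.409), with IMQ+XYF replicate 3 just above IMQ+H2O replicate 1. The receptors called under imiquimod were near 0 or overlapped: Fcgr4 at -0.45 ± 0.45, Fcer1g at -0.41 ± 0.19, Msr1 at -0.20 ± 0.19 and Marco at 0.18 ± 0.36. Of the other members given by library above, Fcgr2b was at -0.10 ± 0.31, Apoe at 0.17 ± 0.33, Gpnmb at -0.32 ± 0.31, Cd14 at -0.62 ± 0.48 and Clec7a at -0.16 ± 0.39 (SE), and the groups overlapped in all 5.

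The third comparison set IMQ+XYF against the vaseline control, which it shares with the first, while its IMQ+XYF libraries are those of the second. The first and second share the IMQ+H2O libraries, with opposite sign. The values of the 3 comparisons are therefore not independent. Chil3, Fcgr4, Msr1 and Marco were called higher, 4 of 36 members, with 0.695% of all tested genes called higher, and 0 of 36 were called lower, with 0.508%. At an unadjusted p under 0.05, 12 were higher and 1 lower, with 9.58% and 8.76% of all tested genes, and without overlap 10 were higher and 2 lower, with 11.7% and 10.3%. The log2 differences were 4.22 ± 0.80 for Chil3, 2.89 ± 0.49 for Fcgr4, 2.03 ± 0.20 for Msr1 and 2.85 ± 0.39 for Marco (SE), with edgeR adjusted p of 0.0413, 0.0337, 0.0107 and 0.0208. Fcer1g was at 0.81 ± 0.19 and not called. Trem2 lay below VAS+H2O in all 3 libraries, at -1.56 ± 0.40 (SE, edgeR adjusted p = 0.0848), and DESeq2 called it lower (adjusted p = 0.00443). DESeq2 called 6 members higher, with 1.72% of all tested genes, and 1.45% of all tested genes lower. Of the further monocyte genes, Ifitm6 and Hp were called higher here too, at 1.93 ± 0.39 and 2.65 ± 0.43, and Ccl12 was at 1.83 ± 0.19 and called. The median of the 36 members was 0.18, with 21 of 36 above 0, beside 47.3% of all tested genes. The role groups ran from -0.31 for the lipid-handling and scavenger genes and -0.18 for general myeloid genes, through -0.15 for resident macrophage genes and 0.096 for C1q and Ms4a7, to 0.72 for sensing receptors, 0.86 for Fc receptors and 0.94 for monocyte genes. With 1 library left out, between 1 and 5 members were called: 1 when VAS+H2O replicate 2 or 3 or IMQ+XYF replicate 1 was left out, and 2 for IMQ+H2O replicate 1 or 2 or IMQ+XYF replicate 3.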

How the data were processed

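Total RNA of ear dermis was sequenced from TruSeq libraries. Per the methods of the study, reads were aligned by the authors with STAR to GRCm38 (Ensembl annotation), followed by StringTie and DESeq2. The submitters' processing notes name STAR 2.5, Cuffnorm and DESeq 1.22.1. The deposited table holds raw counts per Ensembl gene, not normalized, and no table of other units was used. The counter, its strand setting and its treatment of reads with several hits are not given in the sources used here, so reads of overlapping or near-identical genes cannot be told apart.

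From these counts, genes were filtered with filterByExpr, scaled by TMM (factors 0.948 to 1.036) and tested with edgeR 4.0.16 (R 4.3.3, limma 3.58.1) in a quasi-likelihood fit of ~0 + group over all 9 libraries, with Benjamini-Hochberg adjustment over 22430 genes. SE is the log2 fold change divided by the root of F. DESeq2 1.42.0, other scalings and filters, a fit on 6 libraries, a replicate block and leaving out each library were the alternatives. The fits were tested on simulated data. List levels used log2 CPM with a prior count of 2.

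Named in full were Ly6c2, Plac8, Chil3, Cd163, Folr2, Mrc1, every called member and the 2 highest members of each role group by mean CPM; from the lists of other genes, called genes and, in 3 lists, the 2 with the largest change. A gene of the further monocyte list that this rule names is not reported here. Others named with values (such as Adgre1, C1qa, Trem2, Aif1 and Ly6c1) were picked after their values were seen. Ratios within libraries were computed for more pairs of members than are given here. The members and lists were chosen with earlier results of these data known. Depth was 28756305 to 79836881 counts a library, where 3 counts equal 0.0376 to 0.104 CPM of the total.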

Additional observations from a re-analysis of the deposited data

How the results depend on the processing

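With 3 libraries a group, most calls moved with changes of the fit, and Msr1 was the member called under every alternative in both comparisons with VAS+H2O. For IMQ+H2O against VAS+H2O, 5 members were called, 13 by DESeq2's Wald test, 5 to 7 under the other scalings, filters and the fit on 6 libraries alone, and 1 to 7 with 1 library left out. For IMQ+XYF against VAS+H2O, 4 were called, 7 by DESeq2, 1 in the fit on the 6 libraries alone, and 1 to 5 with 1 library left out. No setting called a member between IMQ+XYF and IMQ+H2O. Medians of the members ran from -0.60 to -0.24 for IMQ+XYF against IMQ+H2O and from 0.070 to 0.35 for IMQ+XYF against VAS+H2O with 1 library left out.

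The replicate numbers shared by the groups were not taken as pairs, because deviations of same-numbered libraries from their group means correlated at -0.18 to 0.12. With the replicate block, 3 members were called for IMQ+H2O against VAS+H2O (Msr1, Marco and, in addition, Ly6c2 at adjusted p = 0.0424, while Chil3, Fcgr4 and Fcer1g were lost at adjusted p = 0.0812, 0.0518 and 0.0639), 2 for IMQ+XYF against VAS+H2O (Msr1 and Marco) and 0 for IMQ+XYF against IMQ+H2O, and Chil3 turned to 0.15 in the last of these.

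Signs turned for members that were not called in the comparison concerned, with the cause not tested. Not all of them were near 0 in the edgeR fit over all 9 libraries. For IMQ+XYF against IMQ+H2O, Cx3cr1 was at -0.53 and Ly6c2 at -0.42 there. For IMQ+XYF against VAS+H2O, Cd163 was at -0.51 and Mrc1 at -0.36. Without TMM factors Gpnmb under imiquimod was at 0.024, and with a filter at a CPM of 1 in 3 libraries Maf was at -0.0060 for IMQ+XYF against IMQ+H2O. With 1 library left out, log2 differences for IMQ+H2O against VAS+H2O ran from -0.054 to 0.89 for Cd163, -0.35 to 0.29 for Mrc1, -0.20 to 0.12 for Mertk, -0.55 to 0.14 for Clec10a, -0.25 to 0.61 for Ms4a7, -0.36 to 0.41 for Lyz1, -0.32 to 0.10 for Gpnmb, -0.31 to 0.12 for Spp1 and -0.65 to 0.14 for Cx3cr1. For IMQ+XYF against IMQ+H2O they ran from -0.85 to 0.025 for Ly6c2, -0.60 to 1.04 for Chil3, -0.26 to 0.12 for Adgre1, -0.19 to 0.19 for Maf, -0.22 to 0.010 for Mertk, -0.43 to 0.12 for Fcgr2b, -0.10 to 0.40 for Apoe, -0.53 to 0.13 for Clec7a and -0.77 to 0.066 for Cx3cr1. For IMQ+XYF against VAS+H2O they ran from -0.80 to 0.14 for Cd163, -0.11 to 0.31 for Folr2, -0.65 to 0.043 for Mrc1, -0.34 to 0.053 for Maf, -0.28 to 0.040 for Mertk, -0.10 to 0.18 for C1qc, -0.33 to 0.093 for Cd68 and -0.32 to 0.085 for Ctss.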
